A study of Homo sapiens with 24 samples.

Results

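The integrated stress response effectors described here are 10 genes taken by name from the table of gene counts: ATF4, ATF5, DDIT3, ATF3, TRIB3, SESN2, DDIT4, CHAC1, GDF15 and INHBE. They are 10 of 58735 genes in the table, and all 10 had enough counts to be tested in both cell lines. THP-1 and MOLM-13 are established human acute myeloid leukemia cell lines, and both carry the MLL-AF9 (KMT2A-MLLT3) fusion. For 72 h, cells of each line were given L-ascorbic acid (LAA, vitamin C) at 250 µM in PBS, olaparib, an inhibitor of PARP1 and PARP2, at 1 µM in DMSO, the combination of both at these doses, or the vehicle control of PBS and DMSO. Polyadenylated RNA was sequenced in 24 libraries, 3 for each of the 8 groups. Nothing in the labels ties a replicate to its own culture, and the p-values given here therefore reflect only the spread between these libraries, which may be technical.

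The integrated stress response slows protein synthesis when a cell lacks amino acids, carries unfolded proteins, senses double-stranded RNA or has failing mitochondria. Kinases phosphorylate the translation initiation factor eIF2 on its alpha subunit, which lowers the rate of most translation but raises that of a few messenger RNAs with upstream open reading frames, among them those of ATF4, ATF5 and DDIT3. The ATF4 protein, a basic leucine zipper transcription factor, then binds C/EBP-ATF response elements and switches on genes for amino acid supply, redox balance, feedback control and cell death. Because ATF4 is controlled largely at translation, the level of its messenger RNA and the level of its protein can move apart, and only messenger RNA was measured here.

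The 10 genes were chosen by name with results of these data known, and 4 of them, TRIB3, GDF15, SESN2 and DDIT4, were chosen by their fold changes in the treated THP-1 cells. Levels and differences in THP-1, and differences between the lines in a treatment's effect, are therefore given as a description with no p-value. As far as is known, the MOLM-13 comparisons did not enter that choice, and they are given with adjusted p-values. The difference between the lines under vehicle was not itself used, but its THP-1 vehicle libraries are part of the fold changes that were. Its adjusted p-values are given with that limit, which applies to TRIB3, GDF15, SESN2 and DDIT4. Levels are CPM, read counts brought to a common depth with TMM scaling, fold changes are on the log2 scale ± SE, and a gene is called when its adjusted p from edgeR's quasi-likelihood test, with Benjamini-Hochberg adjustment over all genes tested, lies under 0.05. The 3 treatments of a line are compared with the same 3 vehicle libraries, so their effects share that reference.

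Libraries held 18666259 to 25265870 counts, and 15186 to 15960 genes had at least 10 counts. Mitochondrially encoded genes took 6.63% to 9.47% of counts in 23 libraries and 11.02% in MOLM-13 olaparib replicate 3. The 10 myeloid markers summed to 1226 to 1504 CPM. In each library 8 of them, among them PTPRC, SPI1 and CD33, had at least 16.4 CPM, MPO had 4.52 to 9.21 CPM, and CD68 had 0.203 to 1.09 CPM. Markers of T and NK cells (6 genes) summed to 5.96 to 23.5 CPM, of B cells (5) to 9.32 to 18.5 CPM, of erythroid cells and megakaryocytes (6) to 0.299 to 2.11 CPM, and of epithelial cells and fibroblasts (8) to 4.74 to 9.89 CPM, with CD3D, CD2, MS4A1, HBB and COL3A1 at or near 0. The libraries labelled MOLM-13 were close to those labelled THP-1: over 17089 genes the mean log2 CPM of MOLM-13 vehicle had a Pearson r of 0.990 with THP-1 vehicle, and MOLM-13 LAA had 0.991 with THP-1 vehicle against 0.992 with its own vehicle. A list of 15 genes nearly silent in THP-1, picked after their values were seen, summed to at most 0.672 CPM in every THP-1 library. In the libraries labelled MOLM-13 it summed to 4.80 to 5.79 CPM under LAA, 17.7 to 20.1 CPM under olaparib, 3.20 to 5.23 CPM under the combination and 30.8 to 32.6 CPM under vehicle. This sum moves with the treatments, and its part in the MOLM-13 results below was not tested. The identity and purity of the libraries labelled MOLM-13 are in doubt for this reason, and below MOLM-13 stands for the libraries with that label, in each of its values and in each difference between the lines. The THP-1 fold changes use no MOLM-13 library, except in the fit of both lines. The CPM and log2 CPM values of THP-1, and the correlations drawn from them, share their filter and TMM scaling with the MOLM-13 libraries.

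In THP-1 cells the combination libraries lay above all vehicle libraries for 9 of the 10 genes and below them for DDIT4. The share of all genes with such a separation was not computed, so nothing is read from this count. The median log2 fold change of the 10 was 2.14, against -0.01 over all genes. The combination called 9 of them higher and 1 lower, where 27.1% of all 16331 genes tested were called, 13.5% in each direction; since this comparison entered the choice of genes, nothing is read from the count. DDIT4 was no longer called without THP-1 vehicle replicate 2 or THP-1 combination replicate 2. As the RNA is of whole cultures, a change in the share of cells in a state and a change in RNA per cell cannot be told apart. In MOLM-13 cells 7 of the 10 rose under the combination, DDIT4 fell, and ATF4 and ATF3 did not pass the test. Of all 16160 genes tested there, 12.2% were called, 4.85% higher and 7.35% lower, and the median log2 fold change was 1.11 for the 10 genes and 0.00 over all genes. Either compound alone called fewer of the 10 than the combination did in the same line, and a gene not called may still have changed. LAA raised TRIB3, ATF5 and INHBE in MOLM-13, where 1.88% of all genes were called, 0.792% higher. By edgeR, 4 of the 10 had an unadjusted p under 0.05 in that comparison, as had 2323 of all 16160 genes. Olaparib called none of the 10 in MOLM-13 by edgeR, where 0.00619% of all genes were called. There 4 of the 10 had an unadjusted p under 0.05, as had 1354 of all 16160 genes, and DESeq2 called 1, TRIB3. In THP-1, LAA called DDIT4 lower (1.49% of all genes called, 0.551% lower) and olaparib called TRIB3 and GDF15 higher (0.269% of all genes called, 0.184% higher). By edgeR, 4 of the 10 under LAA and 5 under olaparib had an unadjusted p under 0.05 in THP-1. Of all 16331 genes 2012 and 1516 had. Nothing is read from these calls and counts either, since treated THP-1 cells entered the choice of genes.

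**Figure D1:**
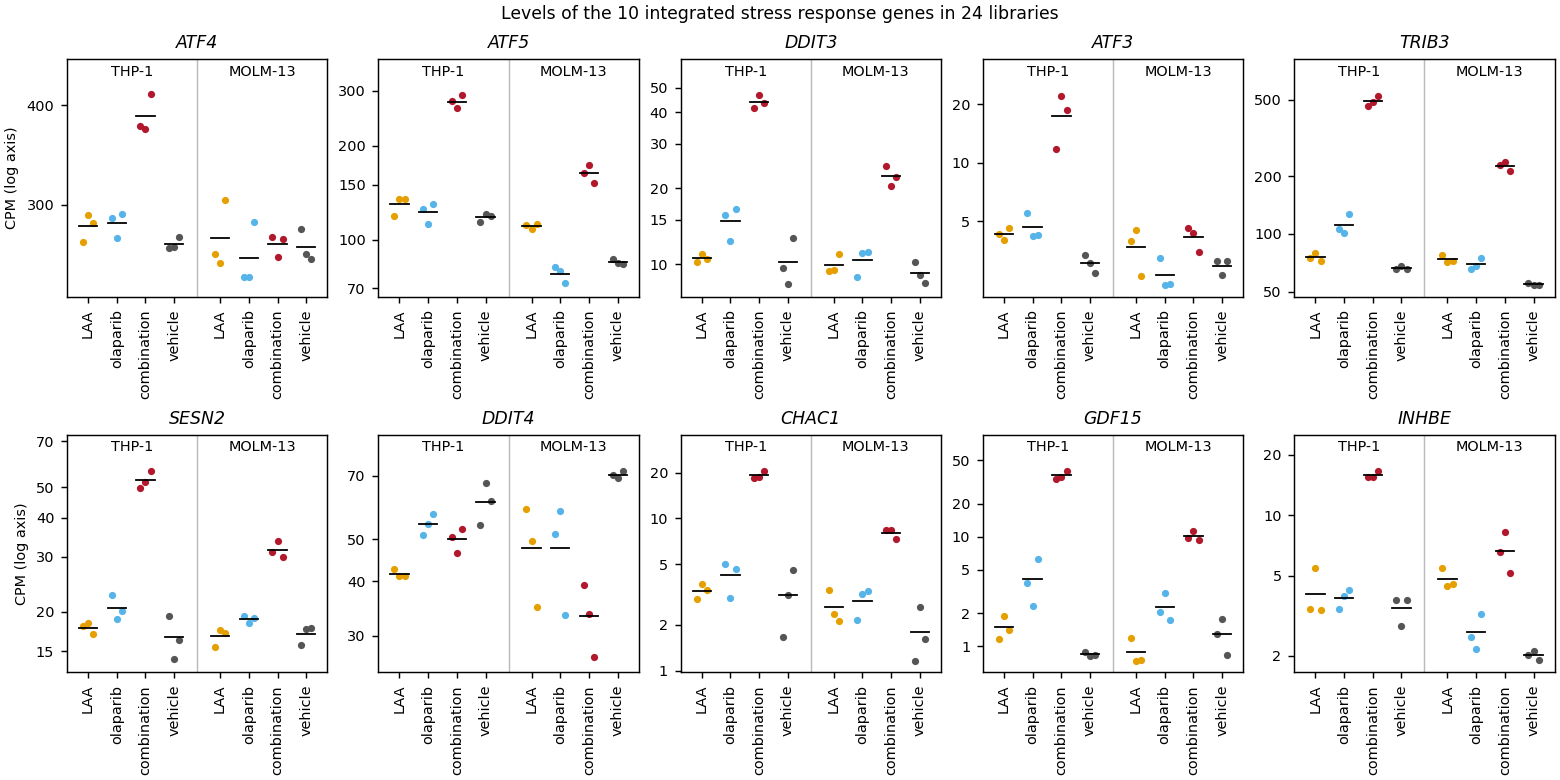
CPM of each gene on a log axis, 1 point per library and a line at the mean of 3, for LAA, olaparib, combination and vehicle in THP-1 (left of the grey line) and MOLM-13 (right). The combination points stand above the vehicle points in both lines for 8 of the 10 genes, a separation whose share over all genes was not computed. The MOLM-13 points of ATF4 overlap, and the combination points of DDIT4 lie below those of vehicle in both lines.

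Per length, ATF4 was the most abundant of the 10 in all 8 groups, in the deposited FPKM values: 111 ± 4.23 under LAA, 112 ± 3.70 under olaparib, 153 ± 8.37 under the combination and 106 ± 1.90 under vehicle in THP-1 (SD, n = 3 each). Under vehicle GDF15 was the lowest in both lines, at 0.399 ± 0.017 FPKM in THP-1 and 0.616 ± 0.222 FPKM in MOLM-13. In MOLM-13 vehicle its neighbours in the order were INHBE at 0.659 ± 0.035 FPKM and ATF3 at 0.727 ± 0.067 FPKM, within the spread of GDF15. The order changed under the combination. TRIB3 then stood second to ATF4, at 142 ± 8.76 FPKM in THP-1 and 65.0 ± 3.44 FPKM in MOLM-13, and ATF3 was last in both lines, at 4.30 ± 1.29 FPKM in THP-1 and 1.02 ± 0.143 FPKM in MOLM-13. In THP-1 the FPKM of TRIB3 and ATF4 under the combination differed by less than the sum of their SDs. GDF15 moved up to the sixth place of the THP-1 combination group, at 17.2 ± 1.34 FPKM, which overlaps SESN2 at 15.1 ± 0.914 FPKM within the sum of their SDs.

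ATF4 encodes the transcription factor at the centre of the response (ENSG00000128272, hg38 chromosome 22, 39519695 to 39522685, plus strand). In THP-1, ATF4 had 269.5, 291 and 285 CPM under LAA, 289, 272 and 292 CPM under olaparib, and 377, 373 and 413 CPM under the combination, against 265, 265 and 273 CPM under vehicle. The combination libraries were all above the other 9, which overlapped among themselves. In MOLM-13, ATF4 had 261, 253 and 304 CPM under LAA, 243, 243 and 286 CPM under olaparib, and 273, 258 and 272 CPM under the combination, against 279, 260.1 and 257 CPM under vehicle. There all 4 groups overlapped. The log2 fold change of the combination was 0.52 ± 0.06 in THP-1 and 0.01 ± 0.08 in MOLM-13 (edgeR adjusted p = 0.951). Its 4 processed copies took few reads: ATF4P1 to ATF4P4 had 1, 1, 162 and 7 counts over all libraries, against 143478 for ATF4.

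ATF5 encodes a related factor that is also controlled by upstream reading frames (ENSG00000169136, chromosome 19, 49928702 to 49933935, plus strand). In THP-1, ATF5 had 119, 135 and 135 CPM under LAA, 125, 112 and 131 CPM under olaparib, and 277, 264 and 290.0 CPM under the combination, against 114, 121 and 119 CPM under vehicle. In MOLM-13, ATF5 had 112, 109 and 112 CPM under LAA, 82.1, 79.2 and 72.6 CPM under olaparib, and 164, 173 and 152 CPM under the combination, against 87.1, 84.4 and 83.5 CPM under vehicle. In MOLM-13 the 4 groups did not overlap: the combination was highest, then LAA, then vehicle, and olaparib lowest. There ATF5 rose under the combination, by 0.94 ± 0.07 (edgeR adjusted p = 4.44e-08), and under LAA, by 0.38 ± 0.07 (edgeR adjusted p = 0.00823). The LAA call was lost without MOLM-13 vehicle replicate 2 (adjusted p = 0.0534) or replicate 3 (adjusted p = 0.0509), at a fold change of 0.38 in both. Under olaparib the difference was -0.12 ± 0.07 (edgeR adjusted p = 0.652). In THP-1 the combination difference was 1.22 ± 0.07, and the single-compound groups overlapped vehicle. On the opposite strand the gene span of ATF5, introns included, shares 1062 bases with that of NUP62 and 838 with that of IL4I1. How many of these bases lie in exons of both genes was not measured. The library kit does not mark the strand, so the strand cannot tell apart reads from such exons.

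DDIT3 encodes CHOP, a factor that ATF4 induces and that promotes cell death when stress lasts (ENSG00000175197, chromosome 12, 57516588 to 57521737, minus strand). In THP-1, DDIT3 had 10.2, 10.97 and 10.5 CPM under LAA, 15.6, 12.3 and 16.5 CPM under olaparib, and 41.5, 46.5 and 43.6 CPM under the combination, against 9.61, 8.33 and 12.7 CPM under vehicle. In MOLM-13, DDIT3 had 9.36, 9.50 and 10.97 CPM under LAA, 8.90, 11.04 and 11.1 CPM under olaparib, and 24.4, 20.3 and 22.2 CPM under the combination, against 10.2, 9.05 and 8.45 CPM under vehicle. In both lines the combination stood clear of the other groups, each of which overlapped vehicle. In THP-1 the olaparib libraries lay above those of LAA. The combination log2 fold change was 2.10 ± 0.13 in THP-1, and in MOLM-13 DDIT3 rose by 1.27 ± 0.13 (edgeR adjusted p = 1.48e-06). The gene span of DDIT3, introns included, shares 982 bases with that of MARS, a transfer RNA synthetase gene, and 1028 with that of MBD6. Both lie on the opposite strand, and how many of these bases lie in exons was not measured. With 61779 counts for MARS and 8205 for DDIT3 over all libraries, the part of the DDIT3 counts that comes from the shared bases was not measured.

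ATF3 encodes an immediate stress factor that feeds back on ATF4 targets (ENSG00000162772, chromosome 1, 212565334 to 212620777, plus strand). In THP-1, ATF3 had 4.28, 3.997 and 4.63 CPM under LAA, 5.50, 4.22 and 4.26 CPM under olaparib, and 11.8, 22.2 and 18.6 CPM under the combination, against 3.36, 3.05 and 2.73 CPM under vehicle. All 9 treated libraries were above the vehicle libraries, and the combination libraries varied most: replicate 1, at 11.8 CPM, also had the highest mitochondrial share of the THP-1 libraries, 9.47%. In MOLM-13, ATF3 had 3.99, 4.54 and 2.61 CPM under LAA, 3.24, 2.36 and 2.37 CPM under olaparib, and 4.61, 4.34 and 3.48 CPM under the combination, against 3.13, 2.64 and 3.12 CPM under vehicle. The MOLM-13 combination libraries were above those of vehicle, a difference of 0.48 ± 0.24 that was not called (edgeR adjusted p = 0.205). The THP-1 difference was 2.51 ± 0.20. MOLM-13 libraries held 46 to 107 ATF3 counts each.

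Promoter windows were read from RefSeq on GRCh38.p14, each from 250 bases before to 50 after an annotated start, and 9 of the 10 genes had 16 windows between them. Both strands were searched for TGATGNAA, the core of the C/EBP-ATF response element. It was in 2 of the 16 windows, against 3.62% of all 35116 windows, a description of these letters only. Windows of the same gene can overlap. By gene it was in 2 of 9, against 4.46% of 27305 genes. The windows with the match are shown with it in capitals: in CHAC1 it reads TGATGCAA on the opposite strand, starting at -209 from the start, and in ATF3 it lies on the strand of the gene at -191.

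CHAC1, chr15:40953221-40953520, plus strand: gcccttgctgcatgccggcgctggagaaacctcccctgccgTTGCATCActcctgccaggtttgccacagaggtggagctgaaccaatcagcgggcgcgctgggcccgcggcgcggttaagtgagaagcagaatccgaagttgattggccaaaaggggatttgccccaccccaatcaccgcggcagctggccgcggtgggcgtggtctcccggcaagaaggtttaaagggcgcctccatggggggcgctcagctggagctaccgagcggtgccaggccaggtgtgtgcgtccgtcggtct

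ATF3, first of 2 windows, chr1:212565157-212565456, plus strand: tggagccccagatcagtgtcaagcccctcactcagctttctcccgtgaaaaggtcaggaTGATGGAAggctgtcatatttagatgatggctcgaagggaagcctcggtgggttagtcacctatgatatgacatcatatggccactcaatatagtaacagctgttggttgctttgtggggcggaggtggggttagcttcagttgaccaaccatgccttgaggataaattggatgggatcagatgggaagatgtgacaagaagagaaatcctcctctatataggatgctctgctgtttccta

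The first TRIB3 window and the DDIT4 window, shown next, have no such match in these 300 bases. TRIB3 had the smallest p in the MOLM-13 combination among the 10, and DDIT4 moved the other way. Bases outside the windows were not searched, so a missing match says nothing about elements elsewhere in a gene. TGACGTCA and TGACGCAA, forms of the cyclic AMP response element, were in none of the 16 windows, and in 1.85% and 0.513% of all windows.

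TRIB3, first of 3 windows, chr20:381045-381344, plus strand: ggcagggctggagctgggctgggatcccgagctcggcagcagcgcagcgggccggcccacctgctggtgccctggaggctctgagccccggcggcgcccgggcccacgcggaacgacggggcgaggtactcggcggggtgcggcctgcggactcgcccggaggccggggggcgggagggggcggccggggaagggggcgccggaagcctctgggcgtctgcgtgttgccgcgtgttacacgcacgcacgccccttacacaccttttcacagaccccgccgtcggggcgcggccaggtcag

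DDIT4, chr10:72273674-72273973, plus strand: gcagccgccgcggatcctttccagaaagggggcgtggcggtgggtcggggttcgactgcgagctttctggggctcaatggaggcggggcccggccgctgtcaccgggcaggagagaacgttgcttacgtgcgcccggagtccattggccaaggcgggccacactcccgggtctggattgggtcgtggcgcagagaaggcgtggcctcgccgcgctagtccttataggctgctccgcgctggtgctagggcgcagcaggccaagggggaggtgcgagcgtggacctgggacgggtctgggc

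TRIB3 encodes a pseudokinase that ATF4 and CHOP induce and that binds ATF4 and AKT, a brake on the response (ENSG00000101255, chromosome 20, 362835 to 397559, plus strand). In THP-1, TRIB3 had 74.8, 79.6 and 72.6 CPM under LAA, 106, 101 and 126 CPM under olaparib, and 463, 484 and 524 CPM under the combination, against 65.6, 67.8 and 65.5 CPM under vehicle. In MOLM-13, TRIB3 had 77.4, 71.2 and 72.3 CPM under LAA, 66.0, 67.8 and 75.0 CPM under olaparib, and 227, 236 and 212 CPM under the combination, against 55.7, 54.5 and 54.4 CPM under vehicle. Every treated library of either line was above its vehicle libraries, and the combination was highest. In MOLM-13 TRIB3 rose by 2.04 ± 0.08 under the combination (edgeR adjusted p = 3.56e-12) and by 0.43 ± 0.08 under LAA (edgeR adjusted p = 0.00434). The difference of olaparib, 0.35 ± 0.08, was not called by edgeR (adjusted p = 0.19) and was called by DESeq2 (adjusted p = 0.0129). Differences in THP-1 were 0.19 ± 0.07 under LAA, 0.75 ± 0.07 under olaparib and 2.88 ± 0.08 under the combination.

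SESN2 encodes sestrin 2, a leucine-binding protein that restrains the growth kinase complex mTORC1 (ENSG00000130766, chromosome 1, 28259527 to 28282491, plus strand). In THP-1, SESN2 had 18.1, 18.4 and 17.0 CPM under LAA, 22.6, 19.0 and 20.1 CPM under olaparib, and 49.9, 52.0 and 56.3 CPM under the combination, against 19.5, 14.2 and 16.3 CPM under vehicle. In MOLM-13, SESN2 had 15.5, 17.6 and 17.2 CPM under LAA, 19.4, 18.5 and 19.1 CPM under olaparib, and 31.1, 33.7 and 30.0 CPM under the combination, against 15.7, 17.7 and 17.8 CPM under vehicle. The combination stood apart in both lines, and LAA overlapped vehicle in both. The combination difference was 1.65 ± 0.11 in THP-1, and in MOLM-13 SESN2 rose by 0.89 ± 0.10 (edgeR adjusted p = 4.76e-06).

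DDIT4 encodes REDD1, which also restrains mTORC1 and answers to hypoxia and glucocorticoids as well as to ATF4 (ENSG00000168209, chromosome 10, 72273920 to 72276036, plus strand). In THP-1, DDIT4 had 42.6, 41.2 and 41.2 CPM under LAA, 51.1, 54.2 and 57.2 CPM under olaparib, and 50.6, 46.4 and 52.9 CPM under the combination, against 53.9, 67.4 and 61.3 CPM under vehicle. In MOLM-13, DDIT4 had 58.7, 49.4 and 34.9 CPM under LAA, 51.4, 58.2 and 33.5 CPM under olaparib, and 39.3, 33.7 and 26.7 CPM under the combination, against 70.4, 69.2 and 71.9 CPM under vehicle. DDIT4 was the one gene of the 10 with a lower level under the combination in both lines. In THP-1 the lowest group was LAA, below the combination, with differences from vehicle of -0.55 ± 0.09 under LAA, -0.17 ± 0.08 under olaparib and -0.29 ± 0.08 under the combination. In MOLM-13 it fell by 1.08 ± 0.18 under the combination (edgeR adjusted p = 0.000474). The MOLM-13 differences of -0.57 ± 0.18 under LAA (edgeR adjusted p = 0.124) and -0.56 ± 0.18 under olaparib (edgeR adjusted p = 0.48) were not called, although all treated libraries lay below the vehicle libraries. Without MOLM-13 olaparib replicate 3, the library with a mitochondrial share of 11.02% and 33.5 CPM of DDIT4, the LAA difference was called (adjusted p = 0.0418).

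CHAC1 encodes an enzyme that breaks down glutathione and is induced by ATF4 (ENSG00000128965, chromosome 15, 40952962 to 40956519, plus strand). In THP-1, CHAC1 had 2.97, 3.69 and 3.37 CPM under LAA, 5.03, 3.00 and 4.68 CPM under olaparib, and 18.4, 18.9 and 20.4 CPM under the combination, against 1.68, 3.15 and 4.58 CPM under vehicle. In MOLM-13, CHAC1 had 3.38, 2.38 and 2.12 CPM under LAA, 2.16, 3.18 and 3.33 CPM under olaparib, and 8.44, 8.39 and 7.37 CPM under the combination, against 1.16, 2.64 and 1.62 CPM under vehicle. In both lines the combination was separate and the other groups overlapped. The difference was 2.62 ± 0.23 in THP-1, and in MOLM-13 CHAC1 rose by 2.17 ± 0.27 (edgeR adjusted p = 1.64e-05).

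GDF15 encodes a secreted stress cytokine that signals to the brain through the receptor GFRAL (ENSG00000130513, chromosome 19, 18374731 to 18389176, plus strand). In THP-1, GDF15 had 1.17, 1.90 and 1.40 CPM under LAA, 3.79, 2.31 and 6.22 CPM under olaparib, and 34.0, 35.3 and 39.5 CPM under the combination, against 0.882, 0.813 and 0.824 CPM under vehicle. In MOLM-13, GDF15 had 1.18, 0.723 and 0.752 CPM under LAA, 2.05, 3.03 and 1.73 CPM under olaparib, and 9.68, 11.1 and 9.31 CPM under the combination, against 1.30, 1.76 and 0.829 CPM under vehicle. The THP-1 groups did not overlap, with vehicle lowest and the combination highest. In MOLM-13 LAA and olaparib each overlapped vehicle and the combination did not. The difference under the combination was 5.41 ± 0.25 in THP-1, the largest of the 10, and in MOLM-13 GDF15 rose by 2.97 ± 0.27 (edgeR adjusted p = 3.47e-07), again the largest. Olaparib differed from vehicle by 2.30 ± 0.29 in THP-1, and by 1.84 without THP-1 olaparib replicate 3. Vehicle libraries held 16 to 36 GDF15 counts, which limits the precision of these folds.

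INHBE encodes the beta E subunit of activin, a secreted protein made mainly in liver (ENSG00000139269, chromosome 12, 57452323 to 57459280, plus strand). In THP-1, INHBE had 3.41, 5.43 and 3.37 CPM under LAA, 3.42, 3.98 and 4.22 CPM under olaparib, and 15.5, 15.5 and 16.6 CPM under the combination, against 3.78, 2.79 and 3.76 CPM under vehicle. In MOLM-13, INHBE had 5.47, 4.44 and 4.55 CPM under LAA, 2.48, 2.16 and 3.24 CPM under olaparib, and 6.57, 8.27 and 5.13 CPM under the combination, against 2.01, 2.10 and 1.89 CPM under vehicle. In THP-1 the combination libraries were above all others. In MOLM-13 the combination and LAA overlapped, and all treated libraries were above vehicle. In MOLM-13 INHBE rose by 1.74 ± 0.22 under the combination (edgeR adjusted p = 2.75e-05) and by 1.27 ± 0.23 under LAA (edgeR adjusted p = 0.0051). The combination exceeded LAA there by 0.47 ± 0.21, which was not called (edgeR adjusted p = 0.141). In THP-1 the combination difference was 2.19 ± 0.19, and LAA differed from vehicle by 0.23 ± 0.20.

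**Figure D2:**
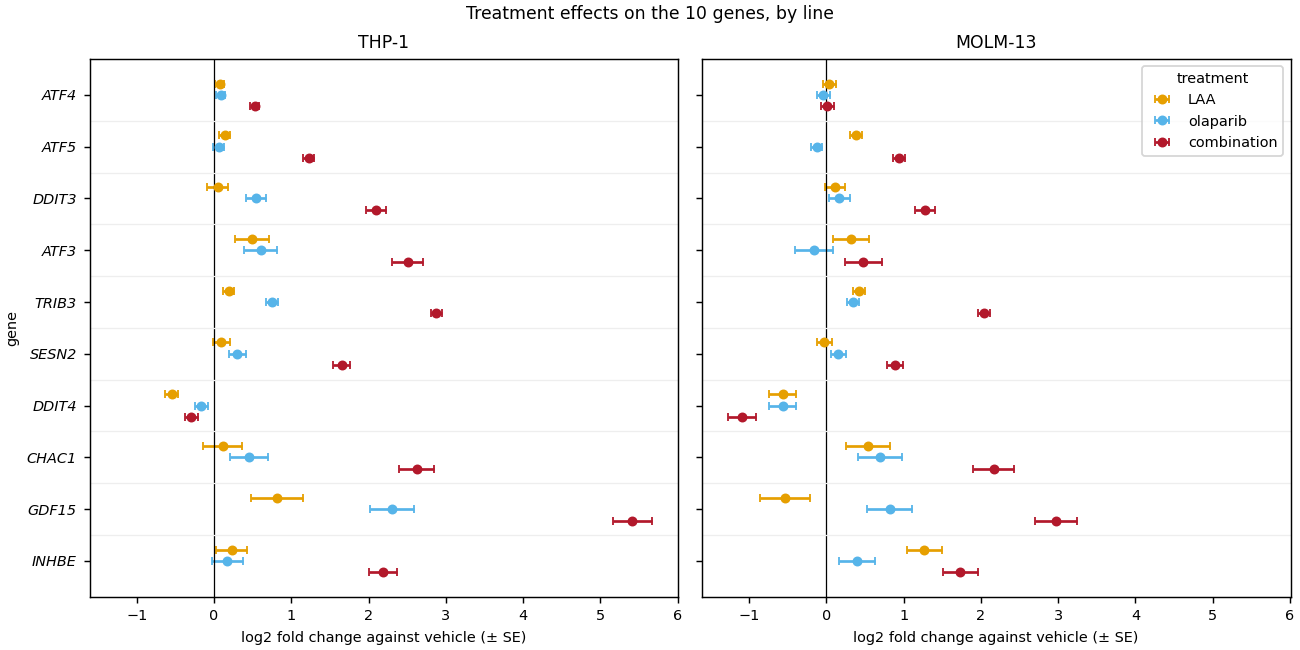
Log2 fold change against vehicle with its SE, for LAA, olaparib and the combination, in THP-1 (left) and MOLM-13 (right), by gene. The combination points lie right of the single compounds for 9 genes in THP-1, and the DDIT4 points lie left of 0 in both lines.

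The combination was next set against each compound and against the sum of both. Against LAA, 6 of the 10 rose in MOLM-13 (14.9% of all genes called, 6.68% higher), and ATF4, ATF3, DDIT4 and INHBE were not called. The DDIT4 difference against LAA, -0.52 ± 0.18 (edgeR adjusted p = 0.0616), was called without MOLM-13 LAA replicate 3, olaparib replicate 3 or combination replicate 1 (adjusted p 0.012 to 0.0428). Against olaparib, 7 of the 10 rose there (7.48% of all genes called, 2.89% higher), INHBE among them at 1.34 ± 0.22 (edgeR adjusted p = 0.000574). DDIT4, at -0.52 ± 0.18 against olaparib (edgeR adjusted p = 0.0934), was called without LAA replicate 3 (adjusted p = 0.0346) or olaparib replicate 3 (adjusted p = 0.00984). The interaction is the combination effect minus the LAA effect minus the olaparib effect on the log2 scale, so a value of 0 means that the folds multiply. In MOLM-13 it was positive and called for 5 of the 10, where 2.04% of all genes were called, 0.712% with a positive value. They were TRIB3 at 1.27 ± 0.11 (edgeR adjusted p = 5e-07), GDF15 at 2.68 ± 0.42 (adjusted p = 0.000973), ATF5 at 0.68 ± 0.10 (adjusted p = 0.000785), DDIT3 at 0.99 ± 0.19 (adjusted p = 0.00579) and SESN2 at 0.76 ± 0.14 (adjusted p = 0.00591). CHAC1, at 0.93 ± 0.38, was not called (edgeR adjusted p = 0.276), and neither were ATF3 at 0.32 ± 0.34, INHBE at 0.07 ± 0.32, DDIT4 at 0.04 ± 0.25 and ATF4 at 0.01 ± 0.12. For INHBE and DDIT4 the combination in MOLM-13 thus lay within the SE of the sum of the single effects, 1.66 and -1.13.

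In THP-1 the interaction was positive for all 10, from 0.37 ± 0.08 for ATF4 and 0.42 ± 0.12 for DDIT4 to 2.30 ± 0.41 for GDF15, with 7.57% of all genes called, 4.04% with a positive value. Nothing is read from this count, and the DDIT4 value, positive throughout, passed the threshold in 10 of 20 alternatives. For DDIT4 a positive interaction went with a level lower than in vehicle: the single effects summed to -0.71 and the combination gave -0.29. Against LAA alone the THP-1 combination called all 10 genes higher, where 20.3% of all genes were called (10.1% higher). Against olaparib alone it called 9 higher, where 24.2% of all genes were called (12.3% higher). DDIT4 was the exception against olaparib, at -0.13 ± 0.08. Against LAA it differed by 0.25 ± 0.09 and passed the threshold in 13 of 20 alternatives. Treated THP-1 cells entered the choice of genes, so nothing is read from these counts.

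**Figure D3:**
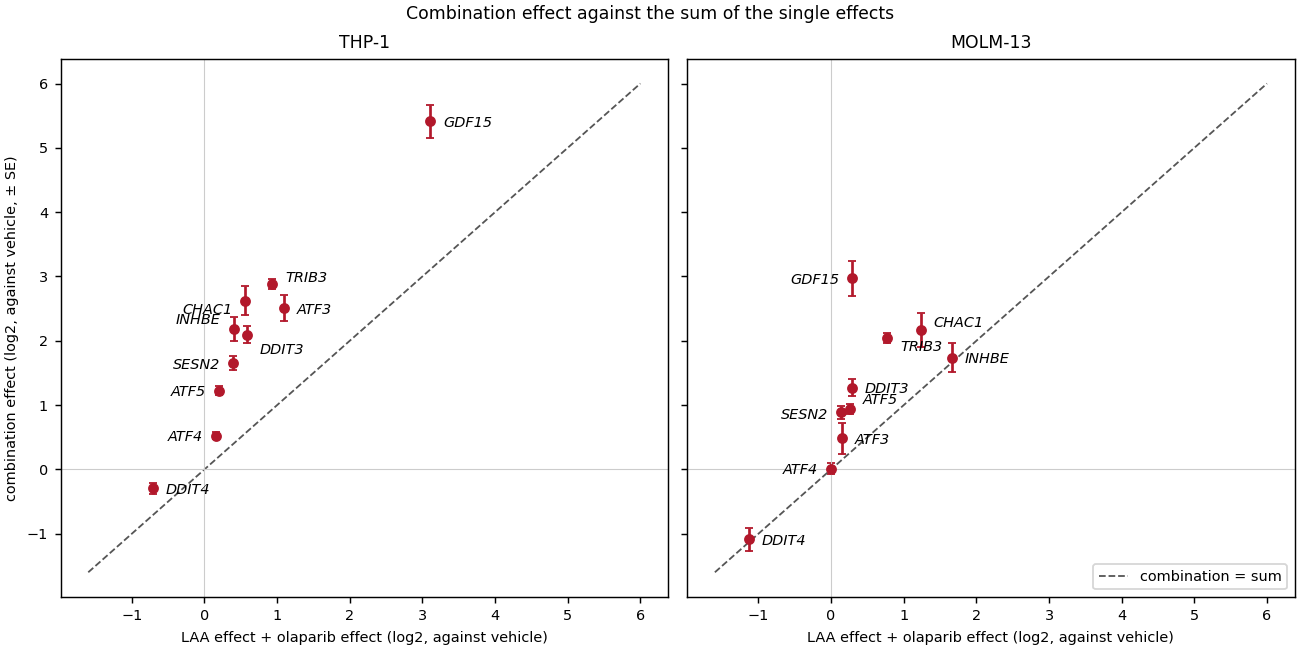
Combination effect with its SE on the y axis against the sum of the LAA and olaparib effects on the x axis, all log2 against vehicle, 1 point per gene, THP-1 left and MOLM-13 right; the dashed line marks equality. All 10 points lie above the line in THP-1, and in MOLM-13 ATF4, DDIT4 and INHBE lie on it within the SE.

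Under vehicle the lines differed in 3 of the 10 genes, where 4.48% of all 17089 genes tested were called, 2.49% higher in THP-1. ATF5 was higher in THP-1 than in MOLM-13 by 0.47 ± 0.07 (edgeR adjusted p = 2.87e-05), TRIB3 by 0.27 ± 0.08 (adjusted p = 0.0327) and INHBE by 0.79 ± 0.22 (adjusted p = 0.034). The TRIB3 call was lost when any 1 of the 6 vehicle libraries was left out (adjusted p 0.0734 to 0.13). The INHBE call was lost without any of the MOLM-13 vehicle libraries or without THP-1 vehicle replicates 1 or 3 (adjusted p 0.0764 to 0.157). CHAC1, at 0.79 ± 0.29 (edgeR adjusted p = 0.151), was not called and passed without MOLM-13 vehicle replicate 2 (adjusted p = 0.0412) or THP-1 vehicle replicate 1 (adjusted p = 0.0207). ATF4 differed by 0.01 ± 0.07 (edgeR adjusted p = 0.968).

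The combination effect was larger in THP-1 than in MOLM-13 for all 10 genes, with DDIT4 less negative. The differences between the lines in this effect, THP-1 minus MOLM-13, ran from 0.29 ± 0.10 for ATF5 to 2.44 ± 0.41 for GDF15, with a median of 0.79 against 0.01 over all genes. ATF3 differed by 2.04 ± 0.31 and ATF4 by 0.52 ± 0.10. CHAC1 at 0.46 ± 0.37 and INHBE at 0.46 ± 0.29 differed by less than 2 SE. The values of 7 of the 10 passed the threshold, where 2.13% of all genes were called, 1.53% with a larger value in THP-1. The THP-1 effects in these differences entered the choice of genes, so nothing is read from that count. The count was 6 with total-count scaling or limma on FPKM, where DDIT4 did not pass. With 1 library left out in turn 5 to 7 passed: DDIT4 no longer did without any 1 of the MOLM-13 vehicle replicates, MOLM-13 combination replicates 2 or 3, THP-1 vehicle replicates 1 or 3, or THP-1 combination replicates 1 or 3, and DDIT3 no longer did without MOLM-13 vehicle replicate 1 or THP-1 vehicle replicate 2. For the single compounds edgeR called none of the 10 between the lines, where 0.14% of all genes were called under LAA and 0.00585% under olaparib. At an unadjusted p under 0.05 were 4 of the 10 under LAA and 3 under olaparib, against 1095 and 747 of all 17089 genes. Nothing is read from these counts, since the THP-1 effects entered the choice. Under LAA the INHBE difference was -1.03 ± 0.30, a larger effect in MOLM-13.

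All of the genes but DDIT4 varied together across the 12 libraries of THP-1. Without DDIT4, the 36 pairs of genes had Pearson r between 0.915 and 0.986, with a median of 0.960, and in MOLM-13 between -0.21 and 0.968, with a median of 0.728. The points share libraries, and the 3 combination libraries stand apart from the other 9 for most of these genes, so these values are a description of the same split. DDIT4 had r of -0.09 with TRIB3 in THP-1 and -0.74 in MOLM-13. ATF4 had 0.973 with TRIB3 in THP-1 and 0.106 in MOLM-13. Among 12184 genes ranked by the lower of their 2 values of r with TRIB3, over 12 libraries of each line, DDIT3 was at place 5, SESN2 at 17, CHAC1 at 32, ATF5 at 76, GDF15 at 99, INHBE at 220, ATF3 at 977, ATF4 at 3459 and DDIT4 at 10563. The most like outside the 10 were FYN, a SRC family kinase gene, at 0.977, AFAP1 at 0.974, GOT1, the gene of cytosolic aspartate aminotransferase, at 0.973, WARS, a tryptophan transfer RNA synthetase gene that interferon also induces, at 0.971, and the interferon-stimulated gene IFIT2 at 0.967. HSPA9, RBCK1 and TTC39B followed at 0.965, 0.960 and 0.958.

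Other genes of the pathway were counted from lists that were drawn up with earlier results of these data known. Of 53 tested ATF4 targets outside the 10, such as amino acid transporters and transfer RNA synthetases, 43 were called higher and 4 lower under the combination in THP-1, and 26 higher and 4 lower in MOLM-13. Over all genes the combination called 13.5% higher and 13.5% lower in THP-1, and 4.85% higher and 7.35% lower in MOLM-13, so the share called lower in MOLM-13 was close to that of all genes. Their median log2 fold change was 0.56 in THP-1 and 0.27 in MOLM-13, below the medians of the 10. WARS had 424 ± 15.01 CPM under the combination and 108 ± 8.36 CPM under vehicle in THP-1, and 269.8 ± 8.42 and 129 ± 4.62 CPM in MOLM-13 (SD, n = 3 each). The amino acid transporter gene SLC7A5 rose by 0.81 ± 0.07 in MOLM-13 (edgeR adjusted p = 2.02e-07). BBC3, the gene of the death protein PUMA, fell there by 0.73 ± 0.18 (edgeR adjusted p = 0.0121), and TXNIP by 0.52 ± 0.07 (edgeR adjusted p = 3.71e-05). In THP-1, LAA alone called 2 of the 53, both higher, where 1.49% of all genes were called. Olaparib alone called 1 there, also higher, where 0.269% of all genes were called. Neither compound alone called any of the 53 in MOLM-13, where 1.88% of all genes were called under LAA and 0.00619% under olaparib.

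Upstream of ATF4, a list of 10 genes held the 4 eIF2 kinases, activators such as GCN1 and OMA1, and the inhibitors DNAJC3 and IMPACT. Under the combination 2 were called higher in THP-1 (EIF2AK2 and DNAJC3) and 2 lower (EIF2AK1 and DELE1), and 1 higher in MOLM-13. With 13.5% of all genes called each way in THP-1 and 4.85% higher in MOLM-13, these counts are near those of all genes. EIF2AK2, the gene of the double-stranded RNA sensor PKR that interferon also induces, rose by 1.17 ± 0.12 in MOLM-13 (edgeR adjusted p = 1.55e-06), with 120.0 ± 21.1 CPM under the combination and 53.4 ± 7.06 CPM under vehicle; in THP-1 the difference was 1.34 ± 0.07. Of the 5 subunits of the eIF2 alpha phosphatases, PPP1R15A (GADD34, an ATF4-induced feedback subunit) was called in THP-1, with 83.2 ± 1.63 CPM under the combination and 34.1 ± 0.455 CPM under vehicle, and none was called in MOLM-13. Of 9 eIF2 and eIF2B subunits, 5 were called higher and 2 lower in THP-1, and 1 higher and 2 lower in MOLM-13. In THP-1 the 5 higher calls of these 9 subunits lie above the 13.5% of all genes. Lists of 10, 5 and 9 genes are too short for more than a description against such shares.

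Among 22 leucine zipper partners of ATF4, 10 were called higher and 3 lower in THP-1, and 5 higher and 4 lower in MOLM-13. The lower calls in THP-1 were close to the 13.5% of all genes. CEBPB rose in MOLM-13 by 0.47 ± 0.09 (edgeR adjusted p = 0.00229), and JUND fell there by 0.82 ± 0.09 (edgeR adjusted p = 5.29e-06). In the other arms of the unfolded protein response, run by XBP1 and ATF6, 14 of 24 genes were called higher and 2 lower in THP-1, and 8 higher and 1 lower in MOLM-13. The chaperone gene HSPA5 had 1087 ± 37.5 CPM under the combination and 559 ± 21.0 CPM under vehicle in THP-1, and rose by 0.41 ± 0.07 in MOLM-13 (edgeR adjusted p = 0.000934). Of 23 mTORC1 regulators listed with SESN2 and DDIT4, 5 were called higher and 3 lower in THP-1, and 2 higher and none lower in MOLM-13, near the shares of all genes (13.5% each way in THP-1, 4.85% higher and 7.35% lower in MOLM-13). GDF15, SESN2, TRIB3 and ATF3 are also reached by p53 in some cells. Of 23 other p53 targets, 4 were called higher and 9 lower in THP-1, and none higher and 8 lower in MOLM-13. The higher calls in THP-1 were near the 13.5% of all genes, and in MOLM-13 7.35% of all genes were called lower. There CDKN1A fell by 0.48 ± 0.07 (edgeR adjusted p = 8.09e-05). Some genes stand in 2 lists, among them CEBPB, PPP1R15A and BBC3.

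**Figure D4:**
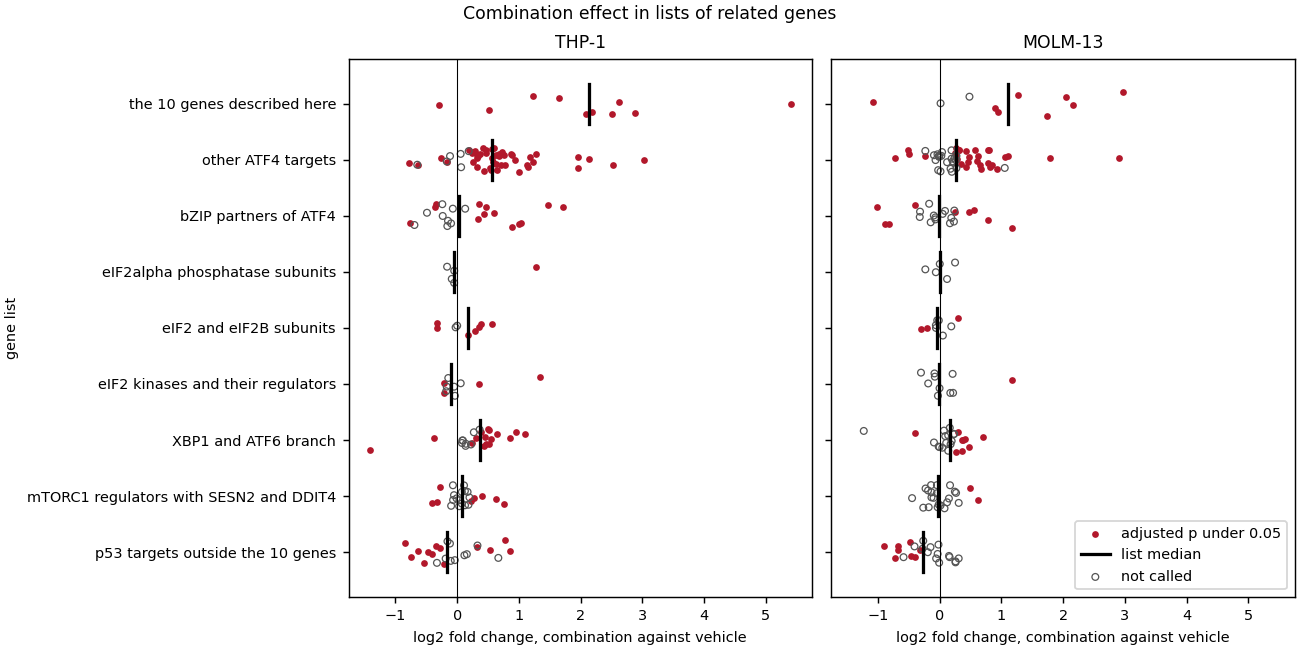
Log2 fold change of the combination against vehicle for each tested gene of the 10 and of 8 related lists, THP-1 left and MOLM-13 right; filled points have an adjusted p under 0.05, open points do not, and a bar marks the list median. The 10 genes, the other ATF4 targets and the XBP1 and ATF6 branch have medians right of 0 in both lines. The other p53 targets have medians left of 0 in both. So have, closer to 0, the eIF2 kinases with their regulators and the eIF2 alpha phosphatase subunits.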

How the data were processed

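Polyadenylated RNA of 24 libraries was sequenced, and all 24 columns of the deposited tables were used. Per the labels' protocols, the kit used for library preparation is an unstranded one. HISAT2, SAMtools, DESeq2 and hg38 are the tools and build listed, per the submitters' processing notes; their versions, the counter and its strand setting were not given in the sources used here. Whole-number counts per gene, without normalization, were deposited by the authors beside FPKM values, which are those counts per gene length and per a size of each library that is not the column total.

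The 10 genes and all lists were chosen with earlier results of these data known. The 12 libraries of a line were fitted together in edgeR 4.0.16 (R 4.3.3): filterByExpr at defaults (minimum count 10, minimum total count 15), TMM scaling, the quasi-likelihood F test and Benjamini-Hochberg adjustment over all genes tested, threshold 0.05. Line differences used all 24 libraries. The SE of a fold change is its size over the root of F. The script was tested on simulated data. Replicates of a group differed by more than sampling noise. Alternatives were DESeq2 1.42.0, DESeq2 size factors, total-count scaling, no filter, limma 3.58.1 on log2(FPKM + 1) and on log2(FPKM + 0.1), a replicate block, a fit of both lines together and leaving out each library. Genes named beyond the 10 were, per list and direction in the combination comparisons, up to 2 called genes with the smallest adjusted p, and the 8 with the highest lower r with TRIB3 and a mean log2 CPM of at least 1 in both lines. Not all of them are given. Log2 CPM used a prior count of 2. Gene positions are those of the deposited table, and gene overlaps were taken from these positions as whole spans, introns included.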

Additional observations from a re-analysis of the deposited data

Results flagged for a closer look

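For 7 of the 10 genes the difference between the lines in the combination effect lay past the threshold in the fit of all 24 libraries. TRIB3, GDF15, SESN2 and DDIT4 were chosen by their THP-1 fold changes, which are part of this difference, so the values are a description and no support. The differences, THP-1 minus MOLM-13 on the log2 scale, were 0.85 for TRIB3, 2.44 for GDF15, 0.77 for SESN2, 0.52 for ATF4, 0.83 for DDIT3, 2.04 for ATF3 and 0.80 for DDIT4. DDIT4 and DDIT3 fell outside the threshold without single libraries of the groups compared, at 0.67 to 0.81 for DDIT4, and DDIT4 also with total-count scaling or limma on FPKM; it passed in 7 of 19 alternatives. The effects behind the ATF3 value were 2.51 ± 0.20 in THP-1 and 0.48 ± 0.24 in MOLM-13, and those behind the ATF4 value 0.52 ± 0.06 in THP-1 and 0.01 ± 0.08 in MOLM-13. The 15 genes nearly silent in THP-1 summed to 3.20 to 5.23 CPM under the combination and 30.8 to 32.6 CPM under vehicle in the libraries labelled MOLM-13, and their part in these differences was not tested. Groups of 3 libraries are too small for a search for single outlying samples.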

How the results depend on the processing

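Counts of the 10 genes called under the combination against vehicle stayed at 10 in THP-1 and at 8 in MOLM-13 under every alternative, except 9 in THP-1 without THP-1 vehicle replicate 2 or combination replicate 2, and DDIT4 missing the threshold in THP-1 in the fit of all 24 libraries. Counts over all genes moved more, and the cause was not tested. For LAA in THP-1 243 genes were called, against 388 with DESeq2, 383 with no filter and 134 with limma on FPKM. For olaparib in THP-1 44 were called, against 95, 124 and 6 in the same order, and limma called 1 of the 10 genes instead of 2. For LAA in MOLM-13 303 were called, against 575 with DESeq2 and 502 with no filter, and for its interaction 329, against 544 and 555. Olaparib in MOLM-13 gave 1 call, against 0 with total-count scaling, 33 with DESeq2 and 194 with no filter; 1 of the 10 genes was called by DESeq2 (TRIB3) and 1 with no filter (DDIT4). For line differences, the LAA count of 24 became 45 with DESeq2, 102 with no filter and 45 with limma, the olaparib count of 1 became 9, 34 (with 1 of the 10 genes) and 0, and the combination count of 364 became 660 and 603 with DESeq2 and no filter.

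Leaving out 1 library at a time gave, for genes called in THP-1, 114 to 311 for LAA, 15 to 79 for olaparib and 797 to 1478 for the interaction. In MOLM-13 it gave 113 to 469 for LAA, 0 to 7 for olaparib, 1043 to 2622 for the combination, 1029 to 3168 for combination against LAA, 624 to 1675 for combination against olaparib and 206 to 496 for the interaction. Line differences gave 13 to 22 under LAA, 0 to 8 under olaparib and 211 to 353 under the combination, and 477 to 578 under vehicle, where 1 or 2 of the 10 genes were called instead of 3; the leave-one-out of line differences was chosen after seeing the data.

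No called value changed sign. Uncalled values that did had these leave-one-out ranges in MOLM-13: SESN2 -0.083 to 0.027 and ATF4 -0.047 to 0.090 under LAA, ATF4 -0.0091 to 0.051 under the combination, ATF4 -0.078 to 0.058 (0.044 with total-count scaling) and ATF3 -0.042 to 0.33 for combination against LAA, and ATF4 -0.035 to 0.0997, DDIT4 -0.16 to 0.22 and INHBE -0.12 to 0.26 for the interaction. Under vehicle between the lines they were SESN2 -0.16 to 0.070, ATF4 -0.014 to 0.051, DDIT3 -0.038 to 0.27 and ATF3 -0.040 to 0.11. For LAA in THP-1 they were SESN2 -0.0069 to 0.23, DDIT3 -0.074 to 0.23, CHAC1 -0.21 to 0.50 and INHBE -0.020 to 0.35. Line differences turned for ATF4 (-0.016 to 0.12), DDIT3 (-0.19 to 0.12), ATF3 (-0.024 to 0.35) and DDIT4 (-0.16 to 0.20) under LAA and for CHAC1 under olaparib (-0.60 to 0.14).

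Over genes as a whole, replicate numbers showed no pairing of the samples. Correlations of same-numbered deviations were -0.05 to 0.03 in THP-1 and -0.07 to 0.08 in MOLM-13. None of 18 pairs in either line was above 0.1. These correlations do not speak to single genes. In MOLM-13, DDIT4 was lowest in replicate 3 of each treated group. It had 34.9 CPM there under LAA, 33.5 CPM under olaparib and 26.7 CPM under the combination. With the replicate number as a block, olaparib in MOLM-13 gave 4 calls over all genes, and DDIT4 in MOLM-13 passed under LAA (adjusted p = 0.0233), for combination against LAA (adjusted p = 0.0165) and against olaparib (adjusted p = 0.0269), and in the same comparisons with no filter (adjusted p 8.62e-06 to 6.47e-05) and in the fit of all 24 libraries (adjusted p 0.0172 to 0.0281). INHBE between the lines under vehicle was not called by limma on FPKM (adjusted p = 0.103).

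The main limits are 3 libraries per group, 16 to 36 GDF15 counts in vehicle libraries, and the overlap of the DDIT3 and ATF5 spans with genes on the other strand. The effect of that overlap on the counts was not measured.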
